A study of Homo sapiens with 4 samples.

Results

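The genes described here are the 1997 entries, of 16692 in the table, whose annotated biotype was antisense, meaning a transcript read from the DNA strand opposite another gene. They were chosen by that annotation alone and not by any measured value. Each was paired by its hg19 coordinates with the protein-coding gene on the other strand that it overlapped by the most bases, with at least 1 base shared. A partner was found for 1673 of them, and 324 had none.

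Antisense transcripts are common in mammalian genomes. Some start close to the promoter of the opposite gene and run away from it (head to head), some meet the opposite gene at its 3′ end (tail to tail), and others lie wholly inside it. Individual antisense RNAs are known to recruit chromatin regulators, to pair with the sense RNA or to interfere with its transcription, while for most no role is known and most are not thought to be translated.

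The study used SNU-668, an established cell line from a human gastric cancer, described as resistant to Erastin, a drug known to induce ferroptosis, a form of death driven by iron and lipid peroxidation. The names of all 4 libraries carry the tag RLS3, which the labels do not explain. Cells carrying a short hairpin RNA against ALKBH3, an enzyme that removes methyl groups from damaged bases, had the genotype label ALKBH3 knockdown, and cells carrying a control hairpin had the label WT. For each there was 1 RNA library and 1 library of ribosome footprints, the fragments that ribosomes protect from RNase, so nothing below has a replicate and no difference was tested. All intervals are 95% intervals for counting error alone, and counts of PCR-amplified reads are not counts of independent molecules. The labels do not say whether the hairpin cells were 1 clone or a pool.

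RNA totals were 554075 control and 689375 knockdown-labelled reads, and footprint totals were 3795680 and 3742513. ALKBH3 itself had 0 RNA reads in both libraries and 14 control and 22 knockdown-labelled footprints, so its counts did not show the knockdown, and the label is used below only as a name. ALKBH3-AS1, the antisense gene that meets ALKBH3 tail to tail, had 2 and 0 RNA reads. Of 10 epithelial markers, 7 were analysed in the footprints, and they summed to 507 and 594, most of it KRT18. The defining marker EPCAM had 0 and 2. The 5 mesenchymal markers summed to 56861 and 55285, led by VIM, FN1 and SPARC, while ZEB1 had only 2 and 2. Of 4 endothelial markers, 2 were analysed and summed to 13 and 16, and neither of 2 erythroid markers was in the table. Of 5 immune markers, 3 were analysed: PTPRC and LYZ were at 0 in both, and CD68, a lysosomal protein gene, had 762 and 745.

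The 3 sequences printed here belong to genes described below. KRT7-AS is the antisense gene with the largest ratio between the libraries among those with 100 or more reads. TMPO-AS1 is an antisense gene that starts head to head with its partner. DDIT4 is a partner whose footprints differed in step with its antisense reads. Each sequence is the RefSeq window from 250 bases before to 50 bases after the gene's start, on the gene's own strand, in build GRCh38.p14. Capitals mark the first 50 transcribed bases in KRT7-AS (chr12:52247399-52247698, minus strand) and TMPO-AS1 (chr12:98516177-98516476, minus strand). In DDIT4 (chr10:72273674-72273973, plus strand) capitals mark ACGTG, the core of the hypoxia response element, which starts 125 bases before the gene's start.
KRT7-AS: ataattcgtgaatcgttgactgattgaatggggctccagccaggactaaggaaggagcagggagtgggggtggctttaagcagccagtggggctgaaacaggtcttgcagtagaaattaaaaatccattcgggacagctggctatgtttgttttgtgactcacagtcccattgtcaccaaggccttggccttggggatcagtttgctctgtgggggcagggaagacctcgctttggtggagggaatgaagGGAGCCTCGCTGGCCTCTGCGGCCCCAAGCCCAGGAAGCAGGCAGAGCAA
TMPO-AS1: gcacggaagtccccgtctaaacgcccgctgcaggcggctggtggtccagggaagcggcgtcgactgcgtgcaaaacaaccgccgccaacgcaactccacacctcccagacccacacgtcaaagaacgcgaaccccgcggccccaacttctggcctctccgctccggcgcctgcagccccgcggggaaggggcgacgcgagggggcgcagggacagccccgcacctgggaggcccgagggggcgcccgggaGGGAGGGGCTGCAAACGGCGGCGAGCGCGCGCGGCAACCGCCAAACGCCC
DDIT4: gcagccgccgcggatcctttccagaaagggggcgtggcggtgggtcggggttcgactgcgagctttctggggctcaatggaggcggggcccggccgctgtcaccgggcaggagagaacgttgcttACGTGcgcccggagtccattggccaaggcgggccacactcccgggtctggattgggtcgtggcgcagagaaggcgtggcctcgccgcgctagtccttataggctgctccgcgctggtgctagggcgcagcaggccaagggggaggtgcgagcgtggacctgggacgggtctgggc

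The window of TMPO-AS1 is 73.3% G and C, against 54.7% for KRT7-AS, whose start lies far inside the KRT7 gene, 14334 bases from the KRT7 start in hg19. TMPO-AS1 and TMPO start 653 bases apart in GRCh38 and 792 in hg19, so the printed window may not match the start of the counted TMPO-AS1 entry. Both strands of each window were searched for ACGTG and for TGATGNAA, the composite element bound by ATF4 with C/EBP proteins, and the pair of motifs do not overlap in letters. Of 35116 RefSeq windows of this length, 21.4% hold ACGTG and 3.62% hold TGATGNAA. ACGTG occurred once on DDIT4's own strand, and once on the opposite strand of the TMPO-AS1 window, 137 bases before the start, where it is not in capitals; the KRT7-AS window had none. TGATGNAA was in none of the 3 printed windows. Windows not printed were searched too, and none held TGATGNAA. ACGTG occurred 2 times in that of SLC7A5 and 2 times in that of GAPDH. It occurred 1 time in 1 window of WARS1 (listed as WARS below) and not in another, nor in those of TMPO. Such a match describes letters in a window and not a bound site.

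Antisense genes were assigned a large part of the RNA reads, though a smaller part than the protein-coding genes. They took 254875 of the control RNA reads, 46.0% (Wilson interval 45.9 to 46.1), and 293074 of the knockdown-labelled reads, 42.5% (42.4 to 42.6). The 13934 protein-coding genes took 51.4% and 54.8%, and the 549 lincRNA genes, long RNAs that lie between genes, took 1.25% and 1.28%. Every antisense gene had at least 1 RNA read, with a median of 20 over both libraries, against 2 for protein-coding genes. How genes were chosen for the table is not stated. All antisense genes listed had RNA reads and none had footprints. Of protein-coding genes, 7592 had no control and 5661 had no knockdown-labelled RNA reads. The medians therefore depend on which genes the table lists. Reads were found for 1682 antisense genes among control and 1856 among knockdown-labelled reads. In bulk RNA of this kind, fewer cells of a type and less RNA per cell cannot be told apart.

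In the footprint libraries all 1997 antisense genes were listed at 0, as were 548 of the 549 lincRNA genes, and protein-coding genes held 99.96% of the counts. Whether footprints on noncoding genes were counted at all is not stated, so these zeros set no upper limit on ribosomes at antisense genes. The sources used here state neither how the RNA libraries mark strand nor how reads were assigned to strands during counting. Without that, RNA reads of an antisense gene and of the gene opposite cannot be told apart. This limit applies to every RNA value above and below, the antisense share of the RNA reads included.

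The antisense reads were concentrated in few genes. The most-read gene alone held 12.9% of them, the first 12 held 47.7%, which is 21.02% of all RNA reads in the table, and the first 100 held 74.0%. At the other end, 778 genes, 39.0%, had fewer than 10 reads over both libraries. Counts of 100 or more were reached by 530 antisense genes, 26.5%, against 733 protein-coding genes, 5.26%. These shares too depend on which genes the table lists. Antisense genes made up 12 of the 20 most-read genes of the table. Their genomic spans ran from 73 to 664474 bases with a median of 3410, and across the 1997 genes the control RNA count had almost no rank correlation with span (Spearman -0.0170).

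The most-read antisense gene was RP5-940J5.9 (ENSG00000269968), which covers 577 bases at chr12:6646960-6647536 on the minus strand, wholly inside GAPDH (chr12:6643093-6647537). GAPDH encodes the glycolytic enzyme glyceraldehyde-3-phosphate dehydrogenase and is among the most expressed genes of most cells. RP5-940J5.9 had 38282 control and 32532 knockdown-labelled RNA reads, or 5769 and 3938 RPKM. GAPDH had 63 and 160 RNA reads, yet 10913 and 8282 footprints. So at this locus nearly all RNA reads were assigned to the antisense gene, and the footprints counted were those of GAPDH.

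The same division held at other loci of abundant proteins. RP11-124N14.3 lies inside VIM (vimentin, an intermediate filament protein) and had 11894 and 16817 RNA reads, while VIM had 47 and 104 RNA reads and 23326 and 16521 footprints. XXbac-BPG252P9.9, inside the tubulin gene TUBB, had 11413 and 11467 RNA reads, while TUBB had 16 and 57 RNA reads and 7549 and 10983 footprints. RP11-138I1.4, inside the ubiquitin gene UBB, had 7801 and 9942 RNA reads, while UBB had 11 and 28 RNA reads and 2313 and 3348 footprints. In each of these pairs the antisense gene had over 100 times the RNA reads of its partner in both libraries. Scaled by length, the order was different from that of the counts: RP11-124N14.3 reached 1071 and 1217 RPKM and RP11-138I1.4 reached 1076 and 1102, above RP11-386G11.10 with 831 and 666.

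RP11-386G11.10, now named TUBA1B-AS1, lies inside the alpha-tubulin gene TUBA1B and ranked second with 21320 and 21271 RNA reads. TUBA1B had 9 and 22 RNA reads and was listed with 0 footprints in both libraries. RP11-161H23.5, inside the related TUBA1C, had 7850 and 7261 RNA reads beside 90 and 88 TUBA1C footprints. Alpha-tubulin genes are nearly identical in their coding sequence, so footprints may be split between copies or lost from them, and the footprint values of these partners are uncertain.

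The other genes of the first 12 also stood opposite genes with few RNA reads, between 8 and 69 in either library. RP11-290D2.6, inside TPT1 (translationally controlled tumour protein), had 3592 and 6770 RNA reads, and RP11-244F12.2, which meets the tropomyosin gene TPM1 at its 3′ end, had 6410 and 6628. KB-1208A12.3, now RPL30-AS1, inside the ribosomal protein gene RPL30, had 3483 and 5065. RP11-498C9.2, inside P4HB (protein disulfide isomerase), had 4514 and 4024, and RP11-66B24.4, now ALDH1A3-AS1, tail to tail with the retinaldehyde dehydrogenase gene ALDH1A3, had 3195 and 4976. VIM-AS1 was the only one of the 12 without a partner and had 6249 and 8560 RNA reads. It lies on the minus strand before the VIM start and did not overlap the VIM entry.

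**Figure D1:**
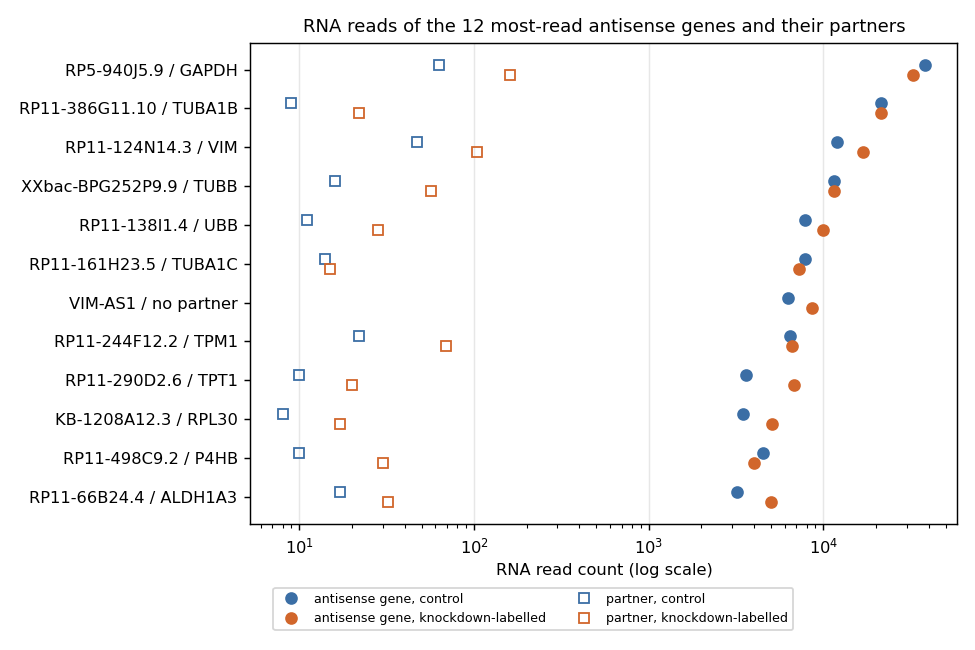
RNA read counts (horizontal log axis) of the 12 most-read antisense genes and of their opposite-strand partners, with filled circles for antisense genes, open squares for partners, blue for the control and orange for the knockdown-labelled library. Antisense genes sit between 3195 and 38282 reads in every library, and partners between 8 and 160.

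Over all 1673 pairs the antisense gene had more RNA reads than its protein-coding partner in 1270, as many in 42 and fewer in 361. In 395 pairs the partner had 0 RNA reads in both libraries. Since every antisense gene listed had at least 1 read, these pairs could only fall among the 1270. This tally therefore also depends on which genes the table lists. Paired antisense genes summed to 240762 control and 274793 knockdown-labelled RNA reads, and their 1524 distinct partners summed to 18250 and 24583. These partners nonetheless held 16.8% of the control footprints, and 1052 pairs had a partner with 100 or more footprints. Ribosomes were thus counted on many sense genes to which few RNA reads were assigned.

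Antisense RNA had a higher rank correlation with the footprints of the gene opposite than that gene's own RNA had. Across the 1673 pairs, the Spearman correlation between the antisense RNA count and the partner's footprint count was 0.331 among control and 0.332 among knockdown-labelled libraries. The partner's RNA count correlated with its own footprints at 0.183 and 0.222, and the antisense and partner RNA counts with each other at 0.163 and 0.229. With RPKM in place of counts the first correlation was 0.385 and 0.392. Partner RNA counts were near the floor, at 0 in both libraries in 395 pairs, while every antisense gene listed had at least 1 read. Ties and counting noise at such low counts can lower a rank correlation, so these correlations are not on an equal footing. These are descriptions across genes, which share their libraries and depth and, at 132 partners, share a partner, so the difference between correlations was not tested.

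Among partners with at least 1 footprint, the same relation showed in levels. Where the partner had fewer than 100 but at least 1 footprint over both libraries, the median antisense gene had 11 RNA reads and 15.7% of 566 reached 100. Where the partner had from 100 to under 1000, the median was 38 and 31.9% of 783 reached 100. Where it had 1000 or more, the median was 109 and 52.4% of 269 reached 100, while the partners of that class had a median of 11 RNA reads. The 55 genes whose partner was listed at 0 footprints, TUBA1B among them, had a median of 13, and 25.5% reached 100. Both values were above those of the class with fewer than 100 but at least 1 footprint.

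**Figure D2:**
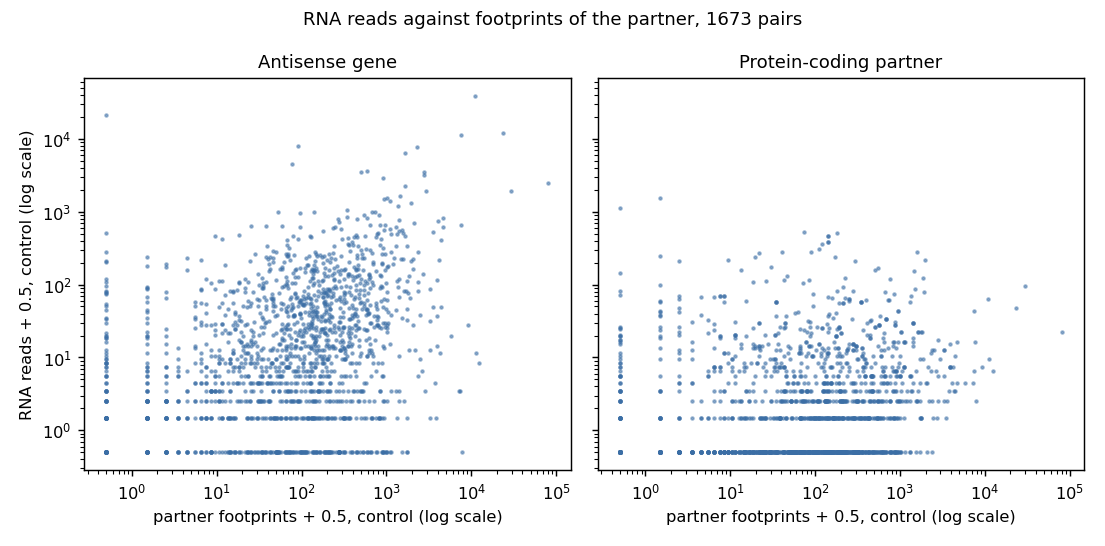
RNA reads plus 0.5 in the control library (vertical log axis) of the antisense gene (left) and of its protein-coding partner (right) against the partner's control footprints plus 0.5 (horizontal log axis), with 1 point for each of 1673 pairs. The cloud climbs to the right in the left panel (Spearman 0.331) and less so in the right panel (0.183).

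Where an antisense gene lay relative to its partner went with its level. The 951 genes wholly inside a partner held 70.3% of antisense reads, and 29.1% of them had 100 or more reads. The 449 tail-to-tail genes held 20.4%, with 37.9% at 100 or more. The 248 head-to-head genes, 12.4% of all, held only 2.66%, with 15.3% at 100 or more. The 324 genes with no partner held 5.91%, with 11.1% at 100 or more, and the 25 that contain a whole partner held 0.681%, with 36% at 100 or more. Per length, the median level was 1.01 control and 1.04 knockdown-labelled RPKM inside a partner, 1.35 and 1.54 tail to tail, 0.220 and 0.357 head to head, and 0.128 and 0.143 without a partner.

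The 3′ end of the partner was where antisense reads were densest. Taking the midpoint of each antisense gene along the span of its partner, the median count over both libraries was 10 for the 217 genes in the 5′ part of the partner, 19 for the 291 in the middle part and 47.5 for the 734 in the 3′ part, when the span is cut into 3 equal parts. It was 10 for 185 genes with a midpoint before the partner's start and 43 for 246 beyond its end. The median control level was 0.339 RPKM in the 5′ part, 0.619 in the middle part and 1.79 in the 3′ part. The partners themselves had similar median control footprints in these classes, 79, 103 and 105. RP5-940J5.9 is placed at the far 3′ end of GAPDH, its upper coordinate 1 base short of it. The ratio between libraries also differed with position, at a median of 0.11 for the 5′ part and -0.15 for the 3′ part, a difference that was not tested.

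**Figure D3:**
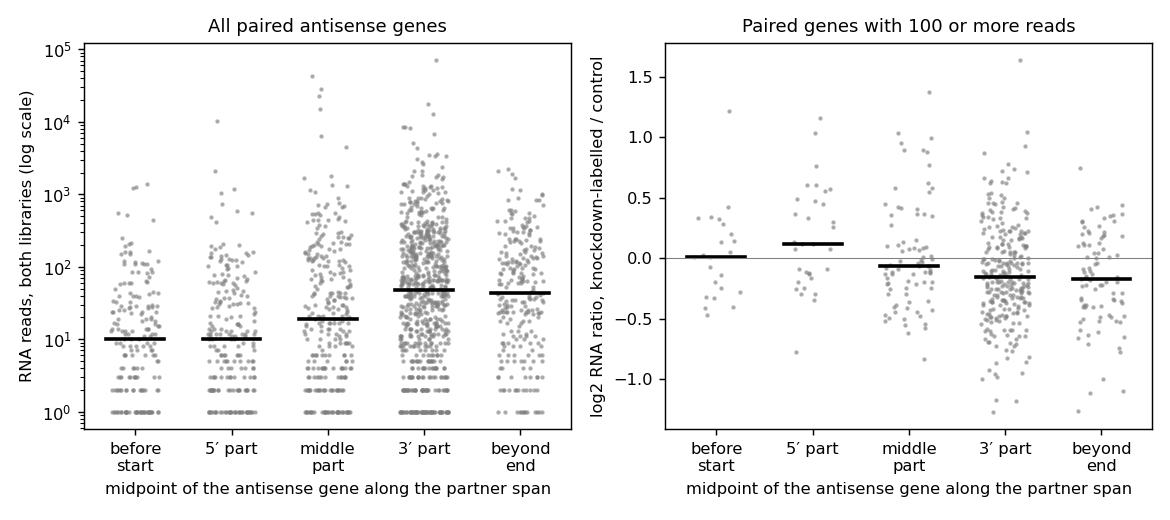
Antisense genes by the position of their midpoint along the partner's span, as RNA reads over both libraries on a log axis (left, 1673 genes) and as the log2 RNA ratio of the knockdown-labelled to the control library for those with 100 or more reads (right). Points are genes and bars are medians, which are 10 reads in the 5′ part and 47.5 in the 3′ part, with median ratios of 0.11 and -0.15.

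Knockdown-labelled and control RNA were compared by the log2 ratio of counts, scaled by TMM factors, for the genes with 100 or more reads. Of 1311 such genes in the table, 530 were antisense. Their median log2 ratio was -0.12, the same as that of the whole table within 0.01 (-0.13), and the median for protein-coding genes was -0.13. A gene was called 2-fold apart when its ratio was at least 2-fold and its interval left out 0. Among antisense genes, 7 were called higher (1.32%) and 8 lower (1.51%), against 2.9% higher and 1.3% lower over all 1311 genes. Over the 781 genes of other biotypes, 31 were called higher (3.97%) and 9 lower (1.15%), and the difference from antisense genes was not tested. With plain totals the split was 13 higher and 4 lower, and with median-of-ratios size factors 4 and 15, since these scalings move the median of all genes to 0.00 and to -0.24.

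With no minimum ratio, the interval lay above 0 for 69 antisense genes (13.02%) and below 0 for 162 (30.6%), against 15% and 30.2% over all 1311 genes and 16.4% and 29.96% over the 781 of other biotypes, and it held 0 for the other 299. The ratios of antisense genes had an SD of 0.42 around a median counting error of 0.18. By placement, head-to-head genes had a median ratio of 0.10, with 8 of 38 intervals above 0 and 3 below, while genes inside a partner had -0.14, with 39 of 277 above and 90 below, and tail-to-tail genes had -0.11, with 18 of 170 above and 52 below.

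The antisense gene furthest higher, among those with 100 or more reads, was RP3-416H24.1, now KRT7-AS, at chr12:52638832-52641232 on the minus strand, inside the keratin gene KRT7. It had 30 control and 128 knockdown-labelled reads, a log2 ratio of 1.64 (1.07 to 2.21). KRT7, an epithelial intermediate filament gene, had 0 RNA reads in both and 16 and 35 footprints, a log2 footprint ratio of 1.06 (0.22 to 1.90). Both members of the pair were thus higher in the knockdown-labelled cells, at low counts. KRT7 is also one of the epithelial markers, whose footprints summed to 507 and 594, and the part of cell composition in this ratio was not tested.

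The deepest of the called higher genes was RP11-442H21.2, at chr10:74034673-74035738 on the minus strand, inside DDIT4 (chr10:74033678-74035794), a stress-induced inhibitor of the growth kinase mTORC1. RP11-442H21.2 had 493 and 1376 reads, a log2 ratio of 1.04 (0.89 to 1.19), which drops under the 2-fold mark at 0.93 with median-of-ratios size factors. DDIT4 had 0 and 6 RNA reads and 1133 and 2257 footprints, a log2 footprint ratio of 0.95 (0.84 to 1.05). The antisense RNA and the sense footprints at this locus therefore differed by similar amounts between the libraries.

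All called higher genes but RP11-442H21.2 had fewer than 200 reads. CTC-338M12.7, inside the ubiquitin ligase gene TRIM41, had 23 and 82 reads (1.37), and RP11-420L9.5, head to head with PXDC1, had 27 and 86 (1.22). CTB-167B5.1, now SRI-AS1, inside the calcium-binding sorcin gene SRI, had 34 and 104 (1.16), while SRI footprints were 387 and 438. Close below 2-fold, RP5-955M13.4, tail to tail with the potassium channel gene KCNG1, had 250 and 644 reads (0.93), and KCNG1 footprints were 452 and 663 (0.51). RP11-315I20.1, now LIX1L-AS1, had 247 and 558 reads (0.74), and RP11-134L10.1, inside C7orf49, had 53 and 140 (0.96). The naming rule left out 2 of the 7 called higher genes, RP4-756G23.5 and UBE2Q1-AS1, and 2 of the 8 called lower, RP11-123M6.2 and RP11-129B22.1, with summed reads of 137, 103, 101 and 211, which are named here after their values were seen.

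Among genes lower in the knockdown-labelled library, P4HA2-AS1 had the most reads of those called. It lies at chr5:131520569-131528501 on the plus strand, tail to tail with P4HA2, a subunit of the prolyl hydroxylase that modifies collagen. P4HA2-AS1 had 532 and 300 reads, a log2 ratio of -1.26 (-1.47 to -1.06). P4HA2 had 2 and 0 RNA reads and 3578 and 2511 footprints, a footprint ratio of -0.56 (-0.63 to -0.48). Antisense RNA and sense footprints were both lower, the RNA by more.

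The rest of the furthest lower genes had smaller counts. RP11-360L9.7, inside the replication gene GINS4, had 229 and 137 reads (-1.18), and GINS4 footprints were 45 and 30. AP001615.9, inside the kinase gene RIPK4, had 109 and 61 (-1.27), with RIPK4 footprints at 679 and 582 (-0.27). RP1-125I3.2, tail to tail with the progestin receptor gene PAQR7, had 79 and 47 (-1.18). RP11-229P13.22, tail to tail with SAPCD2, had 98 and 61 (-1.12), and RP11-535A19.1, tail to tail with the triglyceride synthesis gene DGAT2, had 103 and 65 (-1.10), and with plain totals neither reached 2-fold (-0.99 and -0.98). DGAT2 footprints ran the other way in value, 140 and 166. AC018766.4, inside PTOV1, had 354 and 242 (-0.99), and LIMD1-AS1, tail to tail with LIMD1, had 226 and 158 (-0.95).

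**Figure D4:**
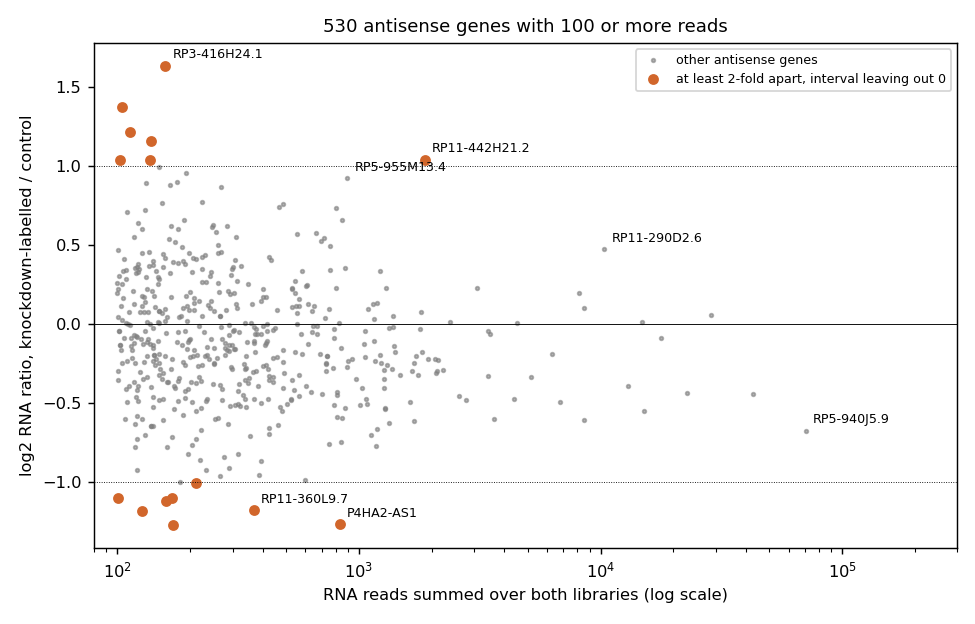
Log2 RNA ratio of the knockdown-labelled to the control library (vertical axis) against RNA reads summed over both libraries (horizontal log axis) for the 530 antisense genes with 100 or more reads. Orange points are the 7 genes called higher and 8 called lower, of which 6 and 5 have fewer than 200 reads, and dotted lines mark a 2-fold ratio.

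The 12 genes with the most reads had the narrowest intervals, and none of them was called 2-fold apart. RP5-940J5.9 was lower at -0.67 (-0.69 to -0.65), beside a GAPDH footprint ratio of -0.44 (-0.49 to -0.40). GAPDH's own few RNA reads gave 0.90 (0.48 to 1.32), opposite in sign to the antisense gene. A ratio above 0 was not particular to GAPDH. Among the partners of the 12 most-read antisense genes, only TUBA1C had an RNA ratio below 0 (-0.34), and several intervals held 0. RP11-386G11.10 was at -0.44 (-0.47 to -0.41), XXbac-BPG252P9.9 at -0.43 (-0.47 to -0.39) and RP11-161H23.5 at -0.55, all tubulin loci. TUBB footprints went the other way from XXbac-BPG252P9.9, with a ratio of 0.49. RP11-290D2.6, opposite TPT1, was the one of the 12 furthest higher, at 0.48 (0.42 to 0.53), while TPT1 footprints were lower at -0.39.

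RP11-124N14.3, inside VIM, had a ratio of 0.06 (0.03 to 0.10), which turns to -0.05 with size factors, beside a VIM footprint ratio of -0.54. RP11-138I1.4, inside UBB, had -0.09 (-0.13 to -0.05), which turns to 0.03 with plain totals and with RPKM, beside a UBB footprint ratio of 0.49. KB-1208A12.3, inside RPL30, had 0.10 (0.04 to 0.16), which turns to -0.01 with size factors. VIM-AS1 had 0.02 (-0.03 to 0.06), which turns to -0.10 (-0.14 to -0.05) with size factors. With plain totals it was 0.14 (0.09 to 0.19), so its interval left out 0 in either direction depending on the scaling. RP11-498C9.2 was lower at -0.60 (-0.66 to -0.54), RP11-244F12.2 lower at -0.39 (-0.44 to -0.34) and RP11-66B24.4 higher at 0.20 (0.14 to 0.27), with ALDH1A3 footprints also higher at 0.53. These intervals cover counting error alone, and the spread between cultures was not measured.

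Antisense genes were then grouped by the known function of their partners. Of 32 measured targets of ATF4, the transcription factor of the amino acid and stress response, 4 had an antisense gene, and all 4 of these reached 100 reads. Their reads summed to 1350 control and 2482 knockdown-labelled, and those of their partners to 7 and 29. The median ratio was 0.45, against -0.13 for all 1311 genes, with 2 intervals above 0, 1 below and 1 holding it, against 15% above and 30.2% below over all genes. RP11-442H21.2, opposite DDIT4 above, was one of the pair above 0. The other was RP4-536B24.2, at chr16:87870138-87871269 on the plus strand, with 92 and 192 reads (0.62, 0.26 to 0.98). It was named after its values were seen. Its partner SLC7A5, which carries large neutral amino acids into cells, had 1349 and 3625 footprints (1.38, 1.29 to 1.47).

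RP11-638I2.8, opposite the tryptophanyl-tRNA synthetase gene WARS, had 118 and 194 reads (0.28, -0.05 to 0.61), an interval that holds 0 but leaves it out with plain totals, TMM over antisense genes alone and RPKM. WARS footprints were 617 and 1273 (0.998, 0.86 to 1.14). RP11-498C9.13, opposite the proline synthesis gene PYCR1, had 647 and 720 (-0.28, -0.44 to -0.13), while PYCR1 footprints were 642 and 800 (0.27, 0.12 to 0.42). So of the 4 ATF4 target loci, all with higher partner footprints, the antisense ratio was above 0 beyond counting error at DDIT4 and SLC7A5, not resolved at WARS and below 0 at PYCR1.

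Antisense genes of actin and intermediate filament genes numbered 8, of which 7 reached 100 reads, with a median of -0.12 and 2 intervals above 0, 3 below and 2 holding it, counts near the 15% and 30.2% of all genes. They summed to 19969 and 25424 reads, most of them in RP11-124N14.3. Of 29 chaperone genes, 4 had an antisense gene. CTD-2256P15.4, tail to tail with the chaperonin subunit gene CCT5, had 3466 and 3346 reads (-0.49), and CCT5 footprints were 2789 and 2128 (-0.44). AC107081.5, inside CCT4, another subunit of the same chaperonin, had 1906 and 2593 reads and CCT4 2927 and 3024 footprints. GS1-393G12.12, tail to tail with the heat shock factor gene HSF1, had 96 and 94 (-0.47, -0.88 to -0.06), an interval that holds 0 with plain totals.

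Of 25 extracellular matrix genes, 8 had 10 antisense genes between them, of which 2 reached 100 reads, both with intervals below 0, as had 30.2% of all genes. CTD-2033D15.1, inside THBS1 (thrombospondin), had 2488 and 2670 reads (-0.34), while THBS1 had 22 and 89 RNA reads and 81052 and 86422 footprints (0.05), the most footprints of any gene in the table. RP11-323N12.5, inside TIMP2, an inhibitor of matrix-degrading proteases, had 1405 and 1368 reads (-0.48), with a TIMP2 footprint ratio of -0.18. The third by reads, RP11-69I8.3 at the CTGF locus, stayed under 100 with 27 and 65.

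The remaining lists held few antisense genes with enough reads. Of 86 ribosomal protein genes only 5 had one, and besides KB-1208A12.3 only AC010761.8, inside RPL23A, reached 100, with 2879 and 3426 reads (-0.19). Of 34 ferroptosis and antioxidant genes 4 had one, and CTD-2033A16.1, inside the quinone reductase gene NQO1, reached 100 with 826 and 993 reads (-0.17, -0.31 to -0.04), an interval that holds 0 with plain totals, while NQO1 footprints were 4654 and 6435 (0.42). AC079305.10 at NFE2L2 had 17 and 31 and RP1-27K12.4 at GCLC had 3 and 8. Glycolysis had RP5-940J5.9 and RP11-192H23.5 at ALDOC, with 1 read in each library. Translation factors had RP11-661A12.7 at EEF1D, with 1472 and 1941 reads, RP11-573D15.9 at EIF4A2 with 12 and 27, and RP11-685M7.5 at EIF4G2 with 0 and 1. Cell cycle genes had RRM1-AS1, with 188 and 194 (-0.39, -0.68 to -0.10), and CTD-2196E14.5 at PLK1 with 4 and 1. With plain totals the intervals of RRM1-AS1 and AC010761.8 hold 0.

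Across pairs, the ratio of the antisense RNA followed the footprint ratio of the partner only weakly. For the 391 pairs with 100 or more reads in both, the Spearman correlation of the ratios was 0.146 and Pearson's was 0.173, across genes that share both libraries. With 500 or more reads in each, Spearman was 0.179 over 89 pairs, and with 1000 or more it was 0.136 over 47. The ratios had the same sign in 222 of 391 pairs. The interval of the difference between the ratios held 0 in 224 pairs, lay above it (antisense higher relative to the partner) in 65 and below it in 102.

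In the 55 of these pairs whose antisense interval lay above 0, the partner's footprint interval lay above 0 in 16 and below in 12. In the 127 whose antisense interval lay below 0, the partner's lay above 0 in 14 and below in 41. In the 209 whose antisense interval held 0, the partner's lay above 0 in 51 (24.4%) and below in 56 (26.8%). For all 7050 genes with enough footprints the shares were 18.2% above and 22.3% below. The differences between these classes were not tested. Only 1 partner was called 2-fold higher in footprints and 1 lower, against 0.879% and 0.426% over all 7050 genes.

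**Figure D5:**
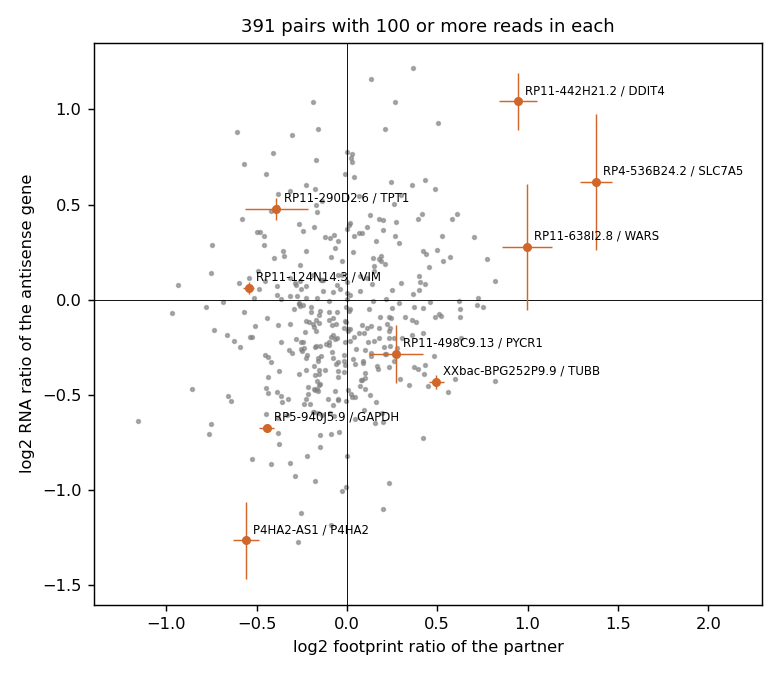
Log2 RNA ratio of the antisense gene (vertical axis) against the log2 footprint ratio of its protein-coding partner (horizontal axis), knockdown-labelled over control, for 391 pairs with 100 or more reads in each. Orange points are named pairs with 95% counting intervals. DDIT4 and SLC7A5 lie high on both axes, P4HA2 and GAPDH low on both, and TUBB and TPT1 in the quadrants of opposite sign.

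Antisense genes of the same partner did not always move alike. At 15 partners a pair of antisense genes both had 100 or more reads, and their ratios differed by more than the counting interval at 8 of them. The same count for antisense genes of different partners was not made, so these 8 say nothing particular about a shared partner. At SAPCD2, RP11-229P13.22 was at -1.12 while RP11-229P13.23 had 110 and 155 reads and 0.06, a difference of 1.17 (0.59 to 1.75). At KXD1, AC005253.4 had 613 and 512 reads (-0.70) and AC005253.2 had 39 and 78 (0.55), a difference of -1.25 (-1.83 to -0.67). At TPM1, RP11-244F12.2 at -0.39 and RP11-244F12.3, with 468 and 582 reads, at -0.12 differed by -0.27 (-0.45 to -0.08). SAPCD2, KXD1 and RP11-244F12.3 were named after their values were seen.

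Finally, 63 antisense and related RNAs with names of their own were looked up, of which 27 were in the table as antisense, with a median of 16 reads, and 10 reached 100. Of those 10, 2 intervals lay above 0 and 2 below, against 15% and 30.2% of all genes. AFAP1-AS1, known for high levels in several cancers, had 260 and 498 reads (0.50, 0.28 to 0.71), while AFAP1 footprints were 950 and 873. BDNF-AS, which is known to repress the neurotrophin gene BDNF, had 81 and 149 reads (0.44, 0.05 to 0.83), an interval that holds 0 with size factors, and BDNF was listed with 0 footprints. PXN-AS1, opposite the focal adhesion gene PXN, had 889 and 1034 (-0.22, -0.35 to -0.09), and SBF2-AS1 had 72 and 68 (-0.52, -0.996 to -0.04), and the intervals of both hold 0 with plain totals.

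The other members of that list had intervals holding 0. MCM3AP-AS1 had 445 and 646 reads (0.10, -0.07 to 0.27), and GAS6-AS1 had 69 and 122 (0.38, -0.04 to 0.80), and with plain totals the intervals of both lay above 0, at 0.22 (0.05 to 0.40) and 0.50 (0.08 to 0.93). EGFR-AS1 had 48 and 65 (0.00, -0.54 to 0.53), beside 3529 and 3409 footprints of the growth factor receptor gene EGFR. TMPO-AS1, whose start is printed above, had 44 and 75 (0.32, -0.21 to 0.86), beside 586 and 567 footprints of TMPO, a nuclear envelope protein gene. ARAP1-AS1 had 72 and 85 (-0.20). For EGFR-AS1, TMPO-AS1 and ARAP1-AS1, differences within these intervals were not detectable at this depth.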

How the data were processed

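RNA and ribosome footprints were measured in 4 SNU-668 libraries, 1 per group, grouped by genotype label and assay. Per the labels' protocols, footprints were RNase-protected fragments. Per the submitters' processing notes, FastQC, cutadapt, Bowtie, STAR and hg19 were used, with no versions or roles. No label or header names the counting program, annotation or strand setting. The authors deposited whole-number read counts per gene, which were used for all ratios, and RPKM values, which were used only to compare levels per length and as an alternative. Between the RNA columns, the factor from count to RPKM was 0.803 at the median over 734 antisense genes, near the ratio of totals (0.804), so the deposited RPKM carries plain library-total scaling.

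The rest was computed here. Log2 ratios used a prior count of 0.5, edgeR 4.0.16 (R 4.3.3) for TMM factors over all genes, and intervals from Poisson counting error at 95%, for genes with 100 or more reads over the pair of libraries compared. RNA factors were 0.958 and 1.04. With 1 library per group, edgeR's quasi-likelihood test cannot be run. The calculation was tested on simulated data. Alternatives were plain totals, DESeq2 1.42.0 size factors, TMM over antisense genes, RPKM plus 0.1, minimums of 20 and 1 reads, a prior of 5, a 1.5-fold limit and paired genes only. Named genes were the 12 most read, the 8 furthest each way by the interval bound nearest 0, those opposite GAPDH or ALKBH3, up to 3 by reads for each of 9 partner lists, and listed antisense RNAs with 100 reads. The members and lists were chosen with earlier results of these data known. Of the 1997 identifiers, 1907 were in a current name table and 526 matched a RefSeq promoter window by symbol. No hg19 genome was used here, so sequences of the antisense genes themselves are not shown.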

Additional observations from a re-analysis of the deposited data

How the results depend on the processing

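With 1 library per group no replicate could be left out. No paired analysis was possible because each group holds 1 library. Of 530 antisense genes, 7 were called higher and 8 lower, with a median log2 ratio of -0.12. Plain totals gave 13, 4 and 0.0018, median-of-ratios size factors 4, 15 and -0.23, TMM over antisense genes alone a median of -0.053, and RPKM plus 0.1 gave 11, 4 and 0.00069. The median of all genes moved along, to 0.00 with totals and -0.24 with size factors. A minimum of 20 reads gave 42, 26 and -0.064, a minimum of 1 read 45, 40 and 0.029, and a 1.5-fold limit 30 and 54. The higher share of calls was 46.7% and ran from 21.1% to 76.5%. The antisense share of control RNA (46.0%) was 42.0% without RP5-940J5.9, 47.4% without mitochondrial genes and 76.7% by RPKM, and that of knockdown-labelled RNA (42.5%) was 39.7%, 43.7% and 74.7%. The correlation of antisense RNA with partner footprints was 0.385 and 0.392 by RPKM, and 0.282 in the knockdown-labelled library for genes with 20 or more reads. Among ratios whose interval left out 0, the sign turned for RP11-138I1.4 to 0.035 with totals and 0.034 with RPKM, RP11-124N14.3 to -0.050 with size factors, and KB-1208A12.3 to -0.0096 with size factors. Among those holding 0, it also turned with size factors for VIM-AS1 (-0.096), AC107081.5 (-0.106) and MCM3AP-AS1 (-0.013), and with totals for RP11-661A12.7 (0.084) and EGFR-AS1 (0.118). The cause was not tested. The minimums of 500 and 1000 reads for the correlation of ratios were chosen after seeing the data. Depth limits most genes: the median counting error of a log2 ratio was 0.18, and 1467 of the 1997 genes stayed under 100 reads.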
